A study of Mus musculus with 3 samples.

Results

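Antigen presentation genes were examined in EpH4-PR cells, which are mouse mammary epithelial cells stably carrying the progesterone receptor isoform PR-A. A probe belonged to the set when its gene name began with the class I or class II part of the H2 (mouse major histocompatibility complex) symbols, or was B2m, a proteasome, transporter, chaperone or trimming gene of the pathway, Cd74, Ciita or Cd1d1. The rule found 73 probes for 51 genes among 41174 probes for 30338 gene names. Psme2 and Nlrc5, the other 2 genes the rule names, had no probe under those names. The name pattern also brought in H2-Ke6 and Pfdn6, which lie in the H2 region but encode an enzyme of steroid and fatty acid metabolism and a prefoldin subunit, so the set was not made up of antigen presentation genes alone. The arrays were two-colour Agilent whole mouse genome arrays of 3 replicates, on which EpH4-PR RNA was labelled with Cy5 and set against a commercial mouse reference RNA labelled with Cy3. EpH4-PR cells had been transfected, selected as clones with G418 and grown in DMEM with fetal bovine serum until subconfluent. The number of clones behind the arrays, and whether the replicates were separate cultures, are not given in the sources used here, so p-values measure only the spread between these arrays, which may be technical. Arrays of EpH4-EV cells, which carry the empty vector, were not analysed here. Every ratio below is therefore EpH4-PR RNA over reference RNA, a description of levels and not an effect of PR.

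Cells cut their own proteins to peptides in the proteasome, and the transporter made of Tap1 and Tap2 carries those peptides into the endoplasmic reticulum. There they are loaded onto class I heavy chains, which reach the cell surface together with the light chain beta-2 microglobulin and show the peptides to cytotoxic T cells. Class II molecules carry peptides from endosomes to helper T cells, mostly on B cells, macrophages and dendritic cells, although interferon can induce them in epithelial cells.

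Each spot was corrected for local background, ratios were normalized by loess within each array, and a probe counted as called when its Benjamini-Hochberg adjusted p from limma fell below 0.05 while its log2 ratio was 1 or more in size. All arrays had the same dye orientation, so a dye effect on a gene cannot be told apart from a difference in RNA. A lower ratio in bulk RNA can likewise come from fewer cells that make a transcript or from less transcript per cell, and these cannot be told apart. Across the 73 probes the log2 ratios of the arrays had Pearson correlations of 0.965, 0.952 and 0.970 for replicates 1 and 2, 1 and 3, and 2 and 3. These are correlations across probes, which are not independent replicates. Of the epithelial marker probes, 8 of 9 were called higher in EpH4-PR RNA (Krt8, Krt18, Krt7, Epcam, Cdh1, Cldn3 and Cldn4), and Krt19 was called lower at -2.62 ± 0.18.

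Among the 73 probes 9 were called lower in EpH4-PR RNA and 1 was called higher by loess, and the other 63 were not called. Of the 41171 probes tested 3.83% were called lower, 2.26% higher and 6.1% in either direction. The called genes were B2m, Psmb9, Psmb8, Cd74, H2-K1, H2-DMb1 and H2-T10 on the lower side and H2-Q8 on the higher side. All 3 arrays lay on the side of the call for each of the 10 called probes. The median log2 ratio was -0.23 over the members and -0.01 over all probes. A ratio above 0 was seen in 13 of the 73 member probes and in 19954 of all 41174 by loess. When the arrays were centred on their median instead, 34 member probes were above 0. With that centring 6 member probes were called higher and 5 lower, against 7031 and 708 of all 41174 probes. Those higher were probes of H2-Q8, Psmb10, Calr, Canx and Pfdn6, the last at 0.69 by loess and 2.06 under median centring. Members whose sign differs between the normalizations are therefore given with both values.

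**Figure D1:**
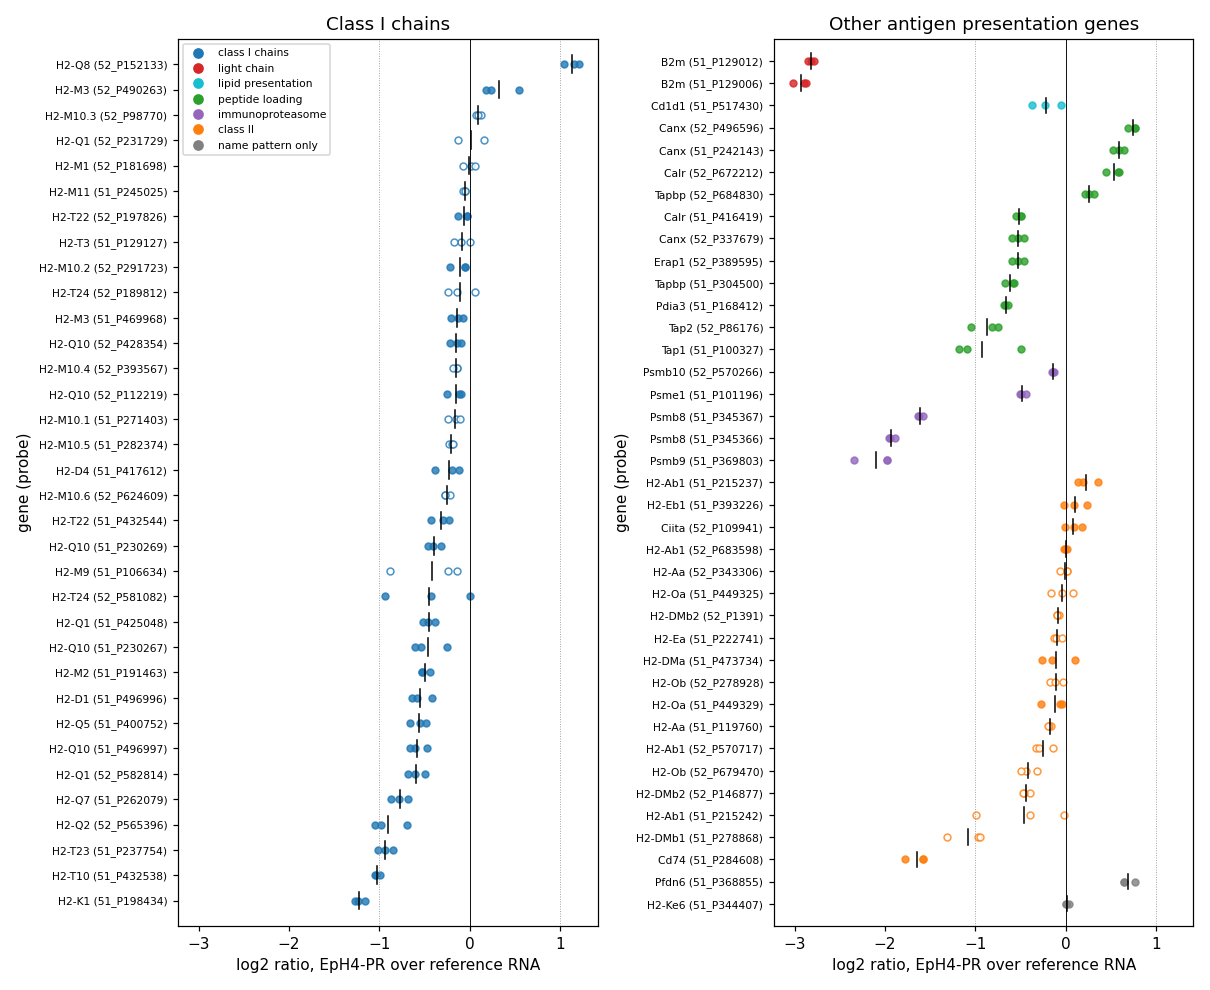
Log2 ratio (x axis, EpH4-PR over reference) of each of the 73 probes (y axis, gene and probe), after loess. Points are the 3 arrays and the vertical tick is their mean; filled points are probes whose EpH4-PR signal stood well above background on each of the 3 arrays, and dotted lines mark the fold threshold. The B2m probes lie lowest at -2.93 and -2.82 and H2-Q8 highest at 1.13, while H2-K1 at -1.22 and H2-T10 at -1.03 are at 0.28 and 0.22 under median centring.

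Beta-2 microglobulin, the light chain shared by all class I molecules, had the lowest ratios of the set. Its first probe read 2508, 2051 and 2116 intensity units in EpH4-PR RNA on replicates 1, 2 and 3 against 5987, 5184 and 5734 in reference RNA. The log2 ratios of that probe were -2.88, -2.90 and -3.02, with a mean of -2.93 ± 0.08 (SD, n = 3; adjusted p 1.31e-05 by limma), a linear ratio of 0.131. The second probe gave -2.82, -2.85 and -2.79, with a mean of -2.82 ± 0.03 and a linear ratio of 0.142. On every array both probes were dimmer in the EpH4-PR channel even before normalization. Both calls were also made under each of the 12 alternative settings, with ratios of -1.49 and -1.38 under median centring.

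H2-K1, a classical heavy chain that presents peptides to cytotoxic T cells, had one probe with ratios of -1.27, -1.16 and -1.24, a mean of -1.22 ± 0.05 (adjusted p 4.79e-05 by limma). Before normalization its EpH4-PR intensity was the brighter one on every array, with 10107, 8915 and 9664 units against 7561, 6471 and 7298 in reference RNA, and under median centring the mean ratio was 0.28. H2-D1, the other classical heavy chain, gave -0.64, -0.42 and -0.58, with a mean of -0.55 ± 0.12 that did not reach the fold threshold, and 0.79 under median centring. The direction of both heavy chains thus differed between the normalizations, and that of B2m did not. The difference between light and heavy chain on the same array depended less on the centring. B2m, averaged over its probes, was below H2-K1 by log2 differences of -1.58, -1.71 and -1.66, a mean of -1.65 ± 0.06, and the mean ran from -1.82 to -1.62 over the alternatives. Against H2-D1 the difference was -2.33 ± 0.13, from -2.39 to -2.23 over the alternatives. These differences were chosen after the values had been seen and carry no test.

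The proximal promoters of B2m and H2-K1 are shown because light and heavy chain genes are known to be transcribed through shared elements, among them interferon response elements, NF-kappaB-like sites and CCAAT boxes. Both windows come from RefSeq on GRCm38.p6, run from 250 bases before to 50 bases after the annotated start and are written along the strand of the gene. B2m lies at chr2:122147437-122147736 on the + strand and H2-K1 at chr17:34000284-34000583 on the - strand. Capitals mark GAAANNGAA (from the interferon-stimulated response element), GGGATTCCC (from the NF-kappaB-like site of class I promoters) and CCAAT, searched on both strands.
B2m: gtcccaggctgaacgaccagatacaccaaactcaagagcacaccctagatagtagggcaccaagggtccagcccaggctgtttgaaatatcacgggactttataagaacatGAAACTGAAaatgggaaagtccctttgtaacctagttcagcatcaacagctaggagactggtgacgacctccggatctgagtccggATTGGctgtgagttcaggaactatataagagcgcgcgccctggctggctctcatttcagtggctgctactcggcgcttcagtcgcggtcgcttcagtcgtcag
H2-K1: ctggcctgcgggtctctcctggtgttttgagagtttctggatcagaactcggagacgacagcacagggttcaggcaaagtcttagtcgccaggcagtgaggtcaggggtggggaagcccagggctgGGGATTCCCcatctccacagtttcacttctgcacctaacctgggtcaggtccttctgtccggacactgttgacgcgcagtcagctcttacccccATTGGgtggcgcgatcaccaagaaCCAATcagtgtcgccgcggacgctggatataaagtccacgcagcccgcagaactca
The B2m window held GAAANNGAA at position -139 from the start and CCAAT on the opposite strand at -53. It held no exact match to GGGATTCCC, and other forms of the NF-kappaB-like site were not searched. The H2-K1 window held GGGATTCCC at -124 and CCAAT at -30 on the opposite strand and at -6. It held no exact match to GAAANNGAA, and other forms of the interferon element were not searched. Among the 51 member genes 39 had a window, in 43 windows because some genes have more than 1. GGGATTCCC stood in 9.3% of the members' windows (H2-D1, H2-K1 and H2-Q7) and in 0.353% of all 32851 windows. GAAANNGAA stood in 11.6% against 8.56% (B2m, Erap1, H2-T22, H2-T23 and Psme1), and CCAAT in 79.1% against 37.4%. Windows of the class I family share sequence, so they are not independent. A match describes letters and not binding, and a window without a match can still hold another form of the element.

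Nonclassical class I chains of the D, Q, T and M regions had 1 probe called higher and 1 called lower among 23. Each is 4.35%, close to the shares of all probes, 2.26% higher and 3.83% lower. H2-Q8, a member of the Qa-2 group, was the only antigen presentation gene called higher by loess. It read 1.04, 1.16 and 1.20, with a mean of 1.13 ± 0.08 (adjusted p 7.79e-05 by limma). Its EpH4-PR intensity was 397, 398 and 413 units, while the reference channel read 154, 145 and 117, above the 95th percentile of negative control spots on 1 of the 3 arrays. The higher call of H2-Q8 was made under all 12 alternatives, with 1.84 under median centring. H2-T10, a ligand of gamma delta T cells, was called lower at -1.04, -1.05 and -0.99 (mean -1.03 ± 0.03, adjusted p 6.3e-05 by limma) and was at 0.22 under median centring. H2-T23, which encodes the Qa-1 ligand of inhibitory receptors on natural killer cells, had a mean of -0.94 ± 0.09 by loess and 0.46 under median centring. H2-Q7, which encodes Qa-2, had a mean of -0.78 ± 0.09, and 0.59 under median centring. H2-Q2 stood at -0.91 ± 0.19 and was called lower without replicate 3, at -1.01, in the scanner software's own log ratio, at -1.25, and with a background correction offset of 0, at -1.31. H2-M3, which presents formylated peptides, had probes on both sides of 0, at -0.14 and 0.32, and both above it under median centring, at 0.94 and 0.38. H2-M2 was at -0.50 and H2-D4 at -0.23, with 0.61 and 0.77 under median centring. The H2-T22 probes read -0.32 and -0.06, and 0.47 and 0.11 under median centring. The H2-T24 probes read -0.45 and -0.11, and none of these was called.

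Several Q region probes read close to H2-D1 on each array. H2-D1 gave -0.64, -0.42 and -0.58. A probe of H2-Q10, which encodes a class I protein secreted by the liver, gave -0.66, -0.47 and -0.61. H2-Q5 gave -0.66, -0.48 and -0.55, and a probe of H2-Q1 gave -0.68, -0.49 and -0.61. The means of these 4 probes lay between -0.59 and -0.55, and between 0.72 and 0.79 under median centring. Replicate 2 was the least negative for each of them, but it was so for H2-K1, H2-T23, H2-Q7 and H2-M2 as well, so that order is not particular to them. Class I genes are near-identical copies and the probe sequences were not used here, so whether these probes read one transcript or several was not tested. The other H2-Q10 probes ranged from -0.46 to -0.15, and from -0.14 to 0.87 under median centring. The other H2-Q1 probes were at -0.45 and 0.01, with 0.57 and -0.25 under median centring, the latter probe without replicate 1, where its spot was marked as an outlier. In the chains of the M1 and M10 group, which are known from sensory neurons of the vomeronasal organ, 0 of 9 probes were called by limma (0 higher and 5 lower at an unadjusted p under 0.05 without a fold threshold, 0 by the methods' t-test with it). The share of all probes at that unadjusted p was not counted, here or below. Only H2-M10.2 of that group was well above background in EpH4-PR RNA on all 3 arrays. Ratios of that group ran from -0.42 for H2-M9 to 0.09 for H2-M10.3, the latter at -0.14 under median centring. At offset 0 H2-M10.6 was called lower, at -1.23. H2-T3, which encodes the thymus leukaemia antigen of intestinal epithelium, was at -0.09 and was not well above background on any array. Cd1d1, which presents lipids and also pairs with B2m, was at -0.22 ± 0.16 by loess and at 0.46 under median centring.

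The immunoproteasome replaces the catalytic subunits of the constitutive proteasome with Psmb8, Psmb9 and Psmb10. Of these, Psmb8 and Psmb9 were called lower in EpH4-PR RNA and Psmb10 was not. Psmb8 read -1.95, -1.96 and -1.89 on its first probe (mean -1.93 ± 0.04, adjusted p 1.92e-05 by limma) and -1.63, -1.58 and -1.63 on its second (mean -1.61 ± 0.03). Psmb9 read -1.97, -1.98 and -2.34, a mean of -2.10 ± 0.21 (adjusted p 6.36e-05 by limma). All 3 of these probes were dimmer in the EpH4-PR channel on every array before normalization, with 161, 161 and 130 units against 367, 362 and 354 for Psmb9. Psmb9 was called lower under each of the 12 alternatives, whereas the Psmb8 probes fell short of the fold threshold under median centring, at -0.90 and -0.82. At offset 0 the ratios were larger in size, -2.79 for Psmb9 and -2.24 and -2.09 for the Psmb8 probes. Psmb10 was nearly level at -0.13, -0.15 and -0.14 (mean -0.14 ± 0.01), and was at 1.24 and called higher under median centring. Psme1, a subunit of the 11S activator that opens the proteasome, was at -0.48 ± 0.04 by loess and 0.88 under median centring.

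Each immunoproteasome subunit was set against the constitutive subunit it replaces, since a shift of a whole array cancels in a difference of ratios on it. Loess also shifts probes by brightness, so the differences still varied between the normalizations. Psmb8 minus Psmb5 was -1.82, -1.82 and -1.84 (mean -1.83 ± 0.01). Psmb9 minus Psmb6 was -2.28, -2.28 and -2.76 (mean -2.44 ± 0.28). Psmb10 minus Psmb7 was -0.05, -0.09 and -0.14 (mean -0.09 ± 0.05). The Psmb8 and Psmb9 pairs lay below the Psmb10 pair on every array. Each of these genes but Psmb8 had 1 probe, and the SD between arrays does not cover differences between probes of a gene. The exact two-sided sign-flip permutation test gave p = 0.25 for each pair, the smallest value that 3 arrays allow. The constitutive subunits themselves were at 0.06 for Psmb5, 0.34 for Psmb6 and -0.05 for Psmb7, and none was called by loess, while all 3 were called higher under median centring, at 1.42, 1.81 and 1.10. Under median centring the pair differences were -2.27 for Psmb8, -3.15 for Psmb9 and 0.14 for Psmb10.

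**Figure D2:**
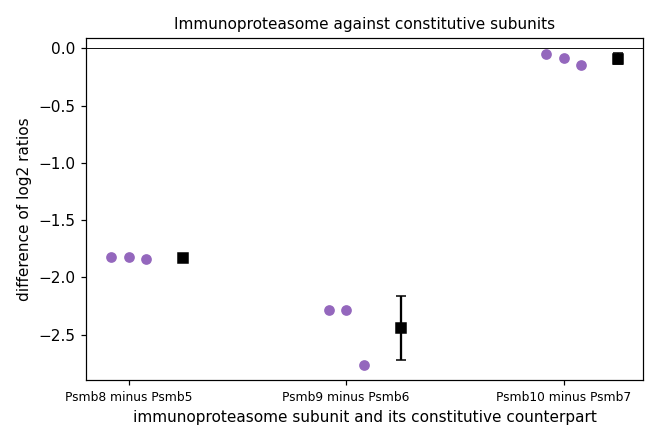
Difference of log2 ratios (y axis) between each immunoproteasome subunit and its constitutive counterpart (x axis). Circles are replicates 1 to 3 from left to right and the square with bars is their mean ± SD; Psmb8 and Psmb9 lie at means of -1.83 and -2.44 below their counterparts and Psmb10 at -0.09, which is 0.14 under median centring.

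Psmb9 shares a bidirectional promoter with Tap1, and Psmb8 lies beside them in the class II region, so the windows of Tap1 and Psmb8 are printed next. They lie at chr17:34187306-34187605 and chr17:34197945-34198244, both on the + strand of GRCm38.p6 (RefSeq), with the same limits around the start as above. Capitals mark CCAAT and TTCNNNGAA, the core of the gamma-activated site.
Tap1: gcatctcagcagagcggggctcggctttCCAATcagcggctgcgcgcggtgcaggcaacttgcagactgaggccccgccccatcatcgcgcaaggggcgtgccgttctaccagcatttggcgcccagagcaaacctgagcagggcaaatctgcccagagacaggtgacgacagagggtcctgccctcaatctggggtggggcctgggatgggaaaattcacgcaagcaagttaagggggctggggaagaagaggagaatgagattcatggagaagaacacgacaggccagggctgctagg
Psmb8: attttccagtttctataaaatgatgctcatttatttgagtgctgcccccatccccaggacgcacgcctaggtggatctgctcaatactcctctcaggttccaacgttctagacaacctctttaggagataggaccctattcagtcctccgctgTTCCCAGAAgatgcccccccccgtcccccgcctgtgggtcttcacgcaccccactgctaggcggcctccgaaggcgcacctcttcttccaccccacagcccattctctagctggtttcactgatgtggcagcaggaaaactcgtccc
The Tap1 and Psmb9 windows overlapped by 275 bases, since the starts of the genes lie 226 bases apart on opposite strands. The Tap1 window held CCAAT at -222 and no exact match to GAAANNGAA, and the Psmb8 window held TTCNNNGAA at -97. No match in the 4 printed windows overlapped a match of another motif. TTCNNNGAA stood in 9.3% of the members' windows (H2-DMb2, H2-M11, H2-M3 and Psmb8) and in 8.3% of all windows, so its share among the members was close to that of all genes.

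Genes of peptide transport and loading had 0 of 11 probes called by limma and 0 by the methods' t-test with the fold threshold. At an unadjusted p under 0.05 without a fold threshold limma put 4 higher and 7 lower. The share of all probes at that cut was not counted, so these counts have no background. The transporter subunits had the lowest ratios among them. Tap1 read -1.10, -1.18 and -0.49, with a mean of -0.92 ± 0.38 (adjusted p 0.00504 by limma), and replicate 3 stood apart from the other 2 arrays. Its EpH4-PR intensity was dim at 117, 112 and 82.9 units. The 95th percentile of the negative control spots was 85.9, 87.4 and 62.9 there. Without replicate 3 Tap1 was at -1.14 and was called lower. Tap2 read -0.81, -0.75 and -1.05 (mean -0.87 ± 0.16). Neither transporter changed direction under median centring, with -0.70 for Tap1 and -0.22 for Tap2. Both were called lower in the log ratio of the scanner software, at -1.70 for Tap1 and -1.22 for Tap2, and at offset 0, at -1.59 and -1.23. Pdia3, the disulfide isomerase of the loading complex, was at -0.66 ± 0.02 and Erap1, which trims peptides in the endoplasmic reticulum, at -0.53 ± 0.07, with 0.78 and 0.36 under median centring.

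Probes of one loading gene often disagreed in sign. Tapasin (Tapbp), which bridges the transporter and class I chains, had probes at -0.61 and 0.26. Calreticulin (Calr), a chaperone of newly made glycoproteins, had probes at -0.51 and 0.54. Calnexin (Canx), its membrane-bound relative, had probes at -0.53, 0.59 and 0.74. Each of these probes had an SD of at most 0.08 between arrays, far less than the distance between probes of the same gene. Among the 15 member genes with more than 1 probe, 6 had probes on both sides of 0 (H2-M3, H2-Q1, H2-Ab1, Tapbp, Calr and Canx). Under median centring all 7 probes of Tapbp, Calr and Canx were above 0, from 0.70 to 2.06, and 3 of the 4 that were above 0 by loess were then called higher. No direction is therefore given for these chaperones.

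Class II genes had 2 of 18 probes called lower (11.1%, against 3.83% of all probes) and 0 called higher. Most class II probes had little signal in EpH4-PR RNA. At an unadjusted p under 0.05 limma put 1 of them higher and 6 lower without a fold threshold, a cut whose share over all probes was not counted. The methods' t-test with the fold threshold called 2 lower and 0 higher. Cd74, the invariant chain that guards the class II groove until peptide loading, read -1.58, -1.58 and -1.78, with a mean of -1.65 ± 0.12 (adjusted p 4.41e-05 by limma). Its EpH4-PR intensity of 137, 140 and 122 units was well above background on all 3 arrays, against 277, 278 and 254 units in reference RNA. The lower call was made under all 12 alternatives, under median centring at -1.04, just past the fold threshold. The ratio of Cd74 was -2.36 at offset 0 and -2.43 from the scanner software. H2-DMb1, a chain of the peptide exchange factor H2-DM, read -0.98, -0.95 and -1.31 and was not well above background in EpH4-PR RNA on any array. Over the 3 arrays its fitted level was 2.11-fold lower there than in reference RNA (adjusted p 0.000414 by limma). That size depended on the processing, with log2 ratios of -2.66 at offset 0 and -3.54 from the scanner software. A bound computed for H2-DMb1 equalled the 2.11-fold estimate and so set no minimum. Its own signal was above the lowest signal counted as well above background. Without replicate 3 the ratio was -0.96, smaller in size, and the call was lost.

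The classical class II chains H2-Aa, H2-Ab1, H2-Ea and H2-Eb1, which form the peptide-binding molecules themselves, had 0 of 8 probes called by limma, with log2 ratios from -0.47 to 0.23 (1 higher and 2 lower at an unadjusted p under 0.05 without a fold threshold, 0 by the methods' t-test with it). The H2-Ea probe was not well above background on any array in EpH4-PR RNA, and neither H2-Aa probe was so on more than 1. H2-Eb1 read 93.1, 102 and 103 units in EpH4-PR RNA, against a 95th percentile of the negative control spots of 85.9, 87.4 and 62.9. Of the 18 class II probes 9 exceeded that percentile on all 3 arrays in EpH4-PR RNA and 1 did in reference RNA, so ratios near 0 here compare mostly dim signals. Ciita, the transactivator of class II genes, was at 0.09 ± 0.09 by loess and -0.10 under median centring, with EpH4-PR intensities of 91.7, 95.2 and 75.9. H2-DMa was at -0.10, the H2-DMb2 probes at -0.09 and -0.44, the H2-Oa probes at -0.04 and -0.12 and the H2-Ob probes at -0.11 and -0.42, none of them called by loess. Some class II probes were called lower under other settings. A probe of H2-Ab1 was at -1.03 in the log ratio of the scanner software, a probe of H2-DMb2 at -1.29 there and -1.06 at offset 0, and a probe of H2-Ob at -1.06 at offset 0.

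**Figure D3:**
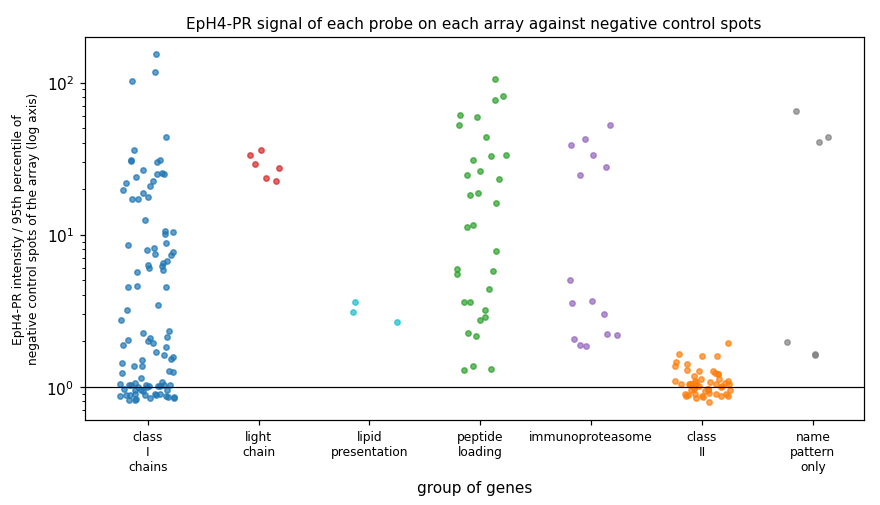
EpH4-PR intensity of each member probe on each array divided by the 95th percentile of the 314 negative control spots of that array (y axis, log scale), by group of genes (x axis). Each point is 1 probe on 1 array without outlier spots and the horizontal line marks that percentile. Class II points lie near the line, and the points of B2m, the loading genes and the immunoproteasome lie above it. Among the loading genes Tap1 lies as near the line as some class II probes.

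Some leukocyte markers were called lower, as Cd74 and H2-DMb1 were. Of their 24 probes for 13 genes 8 were called lower by limma (33.3%, against 3.83% of all probes). The others were 0 called higher and 16 not called, and the median was -0.50. Called probes included Cd79b at -3.17, Lyz2 at -3.41 and Cd68 at -1.84, while a second Lyz2 probe was at -0.24, and Cd79a (0.06), 1 probe of Cd3e (0.11) and 1 of Csf1r (0.06) lay above 0. Under median centring 7 of the 24 were called lower and 0 higher, against 708 and 7031 of all 41174 probes. Cd3e was then at 0.95, Cd79a at -0.10 and Csf1r at -0.14 for the probes just named. At an unadjusted p under 0.05 limma put 15 of the 24 probes lower and 0 higher, a cut whose share over all probes was not counted. The methods' t-test with the fold threshold called 8 lower and 0 higher. The summed intensity of the 24 probes, local background included, was between 2343 and 2949 units in EpH4-PR RNA and between 5623 and 6515 units in reference RNA. Negative control spots read 57.3 to 74.1 units in the EpH4-PR channel and 91.8 to 121.5 in the reference channel. The sums therefore include a floor that is higher in the reference channel. The Ptprc probes, for the leukocyte antigen CD45, read -0.19, -1.40 and -4.50, and the last of them was not well above background in EpH4-PR RNA on any array. The part of leukocyte RNA in the reference in these class II ratios was not tested.

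Pathway genes outside the rule had 12 of 99 probes called lower (12.1%) and 1 called higher (1.01%), with a median of -0.09 over 61 genes. The shares of all probes were 3.83% and 2.26%, and those of all probes well above background in both channels 5.67% and 3.47%. Of the 99 probes 87.9% were well above background in EpH4-PR RNA on all 3 arrays, against 68.9% of all probes. Endosomal proteases, which cut antigens and the invariant chain, held 6 of the 12 lower calls. Cathepsin S (Ctss), which removes the invariant chain in professional antigen-presenting cells, was at -5.05 ± 0.13. Cathepsin B (Ctsb) was at -2.35 ± 0.02 on one probe and -0.45 on the other. Legumain (Lgmn) was at -1.86 ± 0.09, cathepsin L (Ctsl) at -1.495 ± 0.051 and cathepsin Z (Ctsz) at -1.20 and -1.09. Cathepsin H (Ctsh) was the only one called higher, at 1.52 ± 0.18. The remaining lower calls were Fcgrt, the neonatal Fc receptor that pairs with B2m, at -2.004 ± 0.178, the interferon gamma receptor chain Ifngr1 at -1.48 ± 0.07, the endoplasmic reticulum chaperone Hsp90b1 at -1.22 on 1 of its 2 probes, Irf8 at -1.10 on 1 of its 2 probes, the checkpoint ligand Cd274 at -1.08 and Irf2 at -1.004, just past the fold threshold. Ctss and Fcgrt were dim in EpH4-PR RNA, with 102, 104 and 86.1 units and 106, 108 and 90.9 units. The 95th percentile of the negative control spots was 85.9, 87.4 and 62.9 there, so the sizes of both ratios are uncertain. Under median centring only 2 of these 99 probes were called lower (Ctss at -4.07 and Fcgrt at -1.51) and 27 were called higher. Of all 41174 probes 708 were called lower and 7031 higher with that centring. Ctsl was then at 0.07, Ctsz at 0.17 and 0.25 and Hsp90b1 at 0.34, on the other side of 0, and the other called probes kept their direction.

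Of the 32 probes for regulators of class I and class II transcription 13 changed sign between loess and median centring, so the loess values that follow give no direction for those genes. Under median centring 4 of the 32 were called higher, 1 each for Irf1 (1.71), Rfxap (1.69), Rela (1.59) and Nfkb1 (1.55), and 0 lower. The counts for all 41174 probes were then 7031 higher and 708 lower. Irf1, which binds interferon response elements, was at 0.37 and 0.32 on its probes. Jak1 was at -0.79 and the Jak2 probes were at -0.79 and 0.09, and Ifngr2 was at -0.18 and -0.21. All of these changed sign under median centring, to 0.37 for Jak1, 0.13 and -0.16 for Jak2, and 0.13 and 0.92 for Ifngr2. Rfx5 (-0.17 and 0.02), Rfxap (0.57 and -0.03) and Rfxank (-0.15), the subunits of the complex that binds the X box of class I and class II promoters, were not called by loess. Neither were Nfya (0.52 and 0.00), Nfyb (-0.34 and -0.37) and Nfyc (0.06), which bind CCAAT boxes, nor Creb1 (0.35 and -0.26). Sign also turned under median centring for probes of Rfx5 (-0.20), Rfxank (0.48), Nfya (0.80), Nfyb (0.98 and 0.51) and Creb1 (0.15). The NF-kappaB genes Rela (0.46 and 0.49) and Nfkb1 (0.28, 0.38 and -0.24) were not called by loess.

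How a member's ratio read depended on how bright its probe was. When all 41174 probes were divided into 10 equal bins by mean intensity, the median ratio after median centring was -0.24 in the dimmest bin and 1.36 in the brightest, while after loess it was -0.03 and 0.04. The brightest bin held 18 of the 73 member probes, among them both B2m probes, H2-K1, H2-D1, H2-T10, Psmb10 and Psme1. Loess sets each probe against probes of like brightness on its array, and median centring sets it against the array as a whole. Under median centring 27 of the 73 member probes changed sign. H2-Q8, Cd74, Psmb9, H2-DMb1 and both B2m probes were called in the same direction under both. The log ratio of the scanner software, which has its own dye normalization, put H2-K1 at -1.09, H2-D1 at -0.60 and Psmb10 at -0.18, on the same side as loess.

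**Figure D4:**
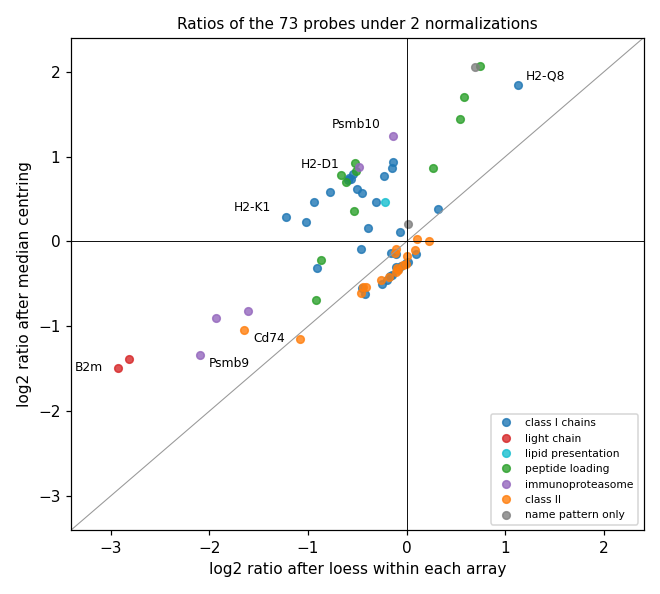
Log2 ratio (EpH4-PR over reference) after median centring (y axis) against that after loess (x axis) for the 73 member probes, coloured by group of genes, with the line of equal values in grey. B2m, Psmb9 and Cd74 lie below 0 and H2-Q8 above 0 on both axes, whereas H2-K1 (-1.22 and 0.28), H2-D1 (-0.55 and 0.79) and Psmb10 (-0.14 and 1.24) lie on different sides of 0.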

How the data were processed

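RNA of EpH4-PR cells (Cy5) was hybridised with a commercial mouse reference RNA (Cy3) on 3 two-colour arrays, 1 to a slide. The authors deposited the output of Agilent Feature Extraction 8.1.1 for each array, with a mean and median spot intensity and a local background intensity per channel, and a log10 ratio of processed Cy5 over Cy3. A further deposited table gives fold changes between sides it does not name, with ratios and p-values. It holds the study's own comparison and was not used.

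Mean intensities were background-corrected with normexp (offset 50) and normalized by loess within each array in limma 3.58.1 (R 4.3.3), leaving out control spots and outlier spots (150, 18 and 3 on replicates 1, 2 and 3). Spots of a probe were averaged and probes of a gene were kept apart. Median intensity was 93.8 to 113 in Cy5 and 108 to 142 in Cy3, and precision is limited by having 3 arrays. The test was of each ratio against 0 by lmFit and eBayes, over 41171 probes. A probe was well above background when over 0.5 of its spots were. Dim negative control spots were marked so in 46.5% to 53.5% of cases in the reference channel and 0.637% to 5.10% in the EpH4-PR channel, so that mark says little about dim reference signals. A bound on a fold used channel levels after Aquantile scaling. The methods' t-test is a plain test per probe against 0, run as an alternative. The fit was tested on simulated data.

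Symbols came from RefSeq accessions (GRCm38.p6 table), which gave 61 of the 73 member probes a current symbol. Ciita, Cd74, Pdia3, Erap1, Pfdn6 and 2 probes of H2-Ab1 stood under older names. All member genes are named, and of the other pathway list the regulators, Psmb5, Psmb6, Psmb7 and every gene with a called probe well above background where it is higher. One regulator is not reported here. The members, lists and tests were chosen with earlier results of these data known. Alternatives covered normalization, background correction, the scanner software's log ratio, dim probes, outlier spots, median spot intensity, each array left out, the variance model, the test and the detection rule. Figures were drawn with matplotlib 3.10.9 in Python 3.11.15.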

Additional observations from a re-analysis of the deposited data

How the results depend on the processing

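Member probes were recomputed under 12 alternatives, except that 1 probe of H2-Q1, measured on 2 arrays, had no value without replicate 2 or without replicate 3. The log ratios under the intensity trend, the kept outlier spots and the methods' t-test, with and without adjustment, left the sign and the call of all 73 probes as reported, and the filter on dim probes did so for the 57 it kept. The calls over all probes went from 932 higher and 1578 lower to 7031 and 708, with 3616 and 3887 from the scanner software and 3125 and 3905 at offset 0. The member calls went from 1 higher and 9 lower to 6 and 5 under median centring, and the lower calls to 14 from the scanner software and 15 at offset 0. The other pathway probes went from 1 higher and 12 lower to 27 and 2 under median centring, with 10 and 7 higher from the scanner software and at offset 0, and 1 to 3 higher without 1 array (2 without replicate 1, 3 without replicate 3). Psmb8 minus Psmb5 was -2.27 under median centring, -2.21 from the scanner software, -2.21 at offset 0 and -1.86 with median spot intensity. Psmb9 minus Psmb6 was -3.15, -3.25 and -3.18 under the first 3 of these. Psmb10 minus Psmb7 was -0.17 from the scanner software and turned to 0.14 under median centring.

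Under median centring the sign turned for H2-D4 (0.77), H2-M2 (0.61), H2-M3 (0.94), H2-Q1 (0.57, -0.25 and 0.72), H2-Q10 (0.15, 0.75 and 0.87), H2-Q5 (0.73), H2-Q7 (0.59), H2-T10 (0.22), H2-T22 (0.47 and 0.11), H2-T23 (0.46), H2-M10.3 (-0.14), H2-D1 (0.79), H2-K1 (0.28), Ciita (-0.10), Psmb10 (1.24), Psme1 (0.88), Cd1d1 (0.46), Calr (0.83), Canx (0.93), Pdia3 (0.78), Erap1 (0.36) and Tapbp (0.70). Other turns were of probes close to 0. H2-M1 was at 0.064 from the scanner software, 0.020 with median spot intensity and from -0.031 to 0.035 without 1 array, the latter without replicate 3. H2-Oa was at 0.018 without replicate 3 and H2-Q1 at -0.030 with median spot intensity. H2-Aa was at 0.0045 at offset 0, 0.012 with median spot intensity and from -0.027 to 0.014 without 1 array (0.014 without replicate 2). H2-Ab1 was at 0.047 from the scanner software, 0.0013 without replicate 1 and from -0.0085 to 0.0056 over the arrays left out (0.0056 without replicate 2). The cause of these turns was not tested.

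The rule for detection left 51 member probes, or 55 with the percentile of negative control spots, which was chosen after seeing the data. Of the 18 class II probes 9 exceeded that percentile on all 3 arrays in EpH4-PR RNA and 1 did in reference RNA. For the 9 M1 or M10 probes these counts were 2 and 0. A difference is hard to read for a probe close to the negative control spots. No paired analysis was possible because there is a single group. The slide was not run as a block, since each slide held 1 array.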
